A study of Mus musculus with 18 samples.

Results

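The genes described are 10 genes for secreted or cell-surface products of connective tissue: the small leucine-rich proteoglycans Dcn, Bgn, Lum, Fmod, Epyc and Ogn, the matricellular protein Postn, the elastic fibre genes Eln and Fbln5, and the tendon gene Tnmd. They were taken by symbol from an expression table of 34244 genes, and all 10 were found. RNA-seq was performed on whole mouse embryos of the FVB strain at E11.5, with 3 embryos of each of 3 genotypes. Dnmt3b +/+ embryos are wild-type, embryos labelled Dnmt3b -/- carry a conventional knockout allele derived from a loxP-flanked allele, and Dnmt3b CI/CI embryos carry a knock-in whose amino acid substitutions inactivate the catalytic site of the DNA methyltransferase Dnmt3b. Every cell of the mutant embryos carries the mutation, and no transgene or Cre marks a cell type. The comparisons asked how expression differs from wild-type in embryos that carry either the knockout label or the catalytically inactive knock-in.

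Small leucine-rich proteoglycans share a curved core of leucine-rich repeats and bind fibrillar collagen, and most carry chondroitin, dermatan or keratan sulfate chains. They limit the width and set the spacing of collagen fibrils and can bind growth factors such as TGF-beta. Matricellular proteins such as periostin sit in the matrix and act on cells rather than bear load, whereas elastin and fibulin-5 build the elastic fibres of arteries, lung and skin. In the embryo these genes are used by mesenchyme of the body wall, limb, head and heart, and by forming cartilage and tendon.

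The members lie at 8 places in the genome (build GRCm38, GENCODE M21). Dcn (ENSMUSG00000019929, chr10:97479609-97518143), Lum (ENSMUSG00000036446, chr10:97565128-97572703) and Epyc (ENSMUSG00000019936, chr10:97644068-97682454) form a cluster on the plus strand of chromosome 10. Ogn (ENSMUSG00000021390, chr13:49608046-49624501, plus) overlaps Cenpp, on the other strand, without sharing an exon. Fmod (ENSMUSG00000041559, chr1:134037254-134048277, plus), Postn (ENSMUSG00000027750, chr3:54361109-54391037, plus), Eln (ENSMUSG00000029675, chr5:134702593-134747323, minus) and Fbln5 (ENSMUSG00000021186, chr12:101746565-101819055, minus) stand on chromosomes of their own, and Bgn (ENSMUSG00000031375, chrX:73483602-73495933, plus) and Tnmd (ENSMUSG00000031250, chrX:133850980-133865577, plus) are both on X. Exons of Epyc overlap the antisense gene Gm10754, which had 1 to 11 reads per embryo, and exons of Eln overlap Gm30003, which had 12 to 65 reads. Whether the counting used strand is not given in the sources used here, so reads of each pair cannot be told apart.

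Upstream sequence by RefSeq (GRCm38.p6) was at hand for 7 of the 10 genes. The set of sequences used here held no entry for Lum, Dcn and Eln. Shown here are the 250 bases before the first listed start of Ogn and Tnmd, the genes with the largest differences between embryos labelled Dnmt3b -/- and Dnmt3b +/+ embryos, and of Bgn, the gene with the smallest, on the log2 scale with 0.1 FPKM added. The windows are chr13:49607765-49608014, chrX:133850758-133851007 and chrX:73483351-73483600, all on the plus strand, and capitals mark CG, the dinucleotide that DNA methyltransferases modify.
Ogn: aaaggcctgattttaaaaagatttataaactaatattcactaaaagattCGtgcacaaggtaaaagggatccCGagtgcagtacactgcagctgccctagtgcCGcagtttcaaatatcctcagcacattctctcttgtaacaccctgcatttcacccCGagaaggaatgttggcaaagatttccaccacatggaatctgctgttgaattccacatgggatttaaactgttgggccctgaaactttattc
Tnmd: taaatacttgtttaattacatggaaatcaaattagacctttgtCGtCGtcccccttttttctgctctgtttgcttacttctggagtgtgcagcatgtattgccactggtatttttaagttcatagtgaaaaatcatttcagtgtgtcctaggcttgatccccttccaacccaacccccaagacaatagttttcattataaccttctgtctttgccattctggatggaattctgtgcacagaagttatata
Bgn: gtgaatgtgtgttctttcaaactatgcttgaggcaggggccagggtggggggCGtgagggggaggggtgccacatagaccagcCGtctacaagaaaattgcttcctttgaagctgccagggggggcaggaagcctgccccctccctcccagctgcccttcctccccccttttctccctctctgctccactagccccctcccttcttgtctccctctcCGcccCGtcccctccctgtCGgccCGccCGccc

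The number of CG differed between these genes. The first window of Fmod, Epyc and Tnmd held 2 each, that of Postn 3, of Ogn 4 and of Bgn 7, against a median of 6 and quartiles of 2 and 16 over 32851 promoters. Bgn and Fbln5 were above that median, Bgn with a number not exceeded by 57.0% of all promoters and Fbln5 with 21 CG, not exceeded by 85.2%. The letters TATAAA, searched on both strands, were found before Ogn, where the hits on the 2 strands overlap, and before a later start of Postn, and in 12.4% of all windows. The letters GGGCGG, on both strands, occurred 3 times before Bgn, where hits overlap, and 2 times before Fbln5, and in 32.7% of all windows. These are matches of letters and say nothing of binding.

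The 9 libraries held 38451729 to 49808777 reads, worked back from the values, and the members had 0 to 6490 reads per embryo. Levels are given in FPKM, reads scaled by gene length and library total. The length joins all annotated exons of a gene, 2448 bases for Lum and 8702 for Postn. An order of genes by level therefore also rests on the annotation. The knockout label could not be checked on the RNA of Dnmt3b itself. Its level over the whole gene was higher in each embryo under that label than in every other embryo. The values were 2.45, 3.12 and 3.33 FPKM, against 2.25, 1.62 and 2.04 FPKM in wild-type and 2.06, 1.98 and 2.32 FPKM in CI/CI embryos. The log2 difference of Dnmt3b from wild-type was 0.57 (adjusted p = 0.0248 by limma). The exons removed by the null allele are not given in the sources used here. The paper genotyped embryos on yolk sac DNA and shows an immunoblot of Dnmt3b protein in embryos of the 3 genotypes. Heart and liver genes were also uneven between these libraries, all labelled whole embryo, and the cause was not tested. Myl2, the ventricular myosin light chain, was between 8.45 and 14.5 FPKM in 5 embryos (Dnmt3b +/+ 2, labelled -/- 2 and 3, CI/CI 1 and 2) but between 0.0115 and 0.0934 FPKM in the other 4. In embryo 2 of Dnmt3b +/+, the liver genes Alb and Afp were at 0.103 and 0.119 FPKM, against at least 9.67 and 23.8 FPKM elsewhere. Results are therefore also given within the embryos with and without Myl2.

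The 10 genes were lower in embryos labelled Dnmt3b -/- than in Dnmt3b +/+ embryos. Their summed level was 57.0 to 71.4 FPKM in Dnmt3b +/+, 21.5 to 25.6 FPKM in embryos labelled Dnmt3b -/- and 64.5 to 80.3 FPKM in Dnmt3b CI/CI. A gene was called lower at a Benjamini-Hochberg adjusted p under 0.05 over all 19397 genes tested and a fall of at least 2-fold on the scale log2(FPKM + 0.1), with limma. By this rule 9 of 10 members were called lower, against 3.38% of all genes, and 10 of 10 had an adjusted p under 0.05 with a lower level, against 16.4% of all genes. The median log2 difference was -1.51 over the 10 genes and -0.07 over all genes tested. For each of the 10, the 3 embryos labelled Dnmt3b -/- lay below the 3 Dnmt3b +/+ embryos, which held for 23.8% of all genes. The 10 genes were chosen with earlier results of these data known. Their counts beside all genes, here and below, are therefore a description. In whole embryos, fewer cells that express a gene and less RNA per cell cannot be told apart.

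**Figure D1:**
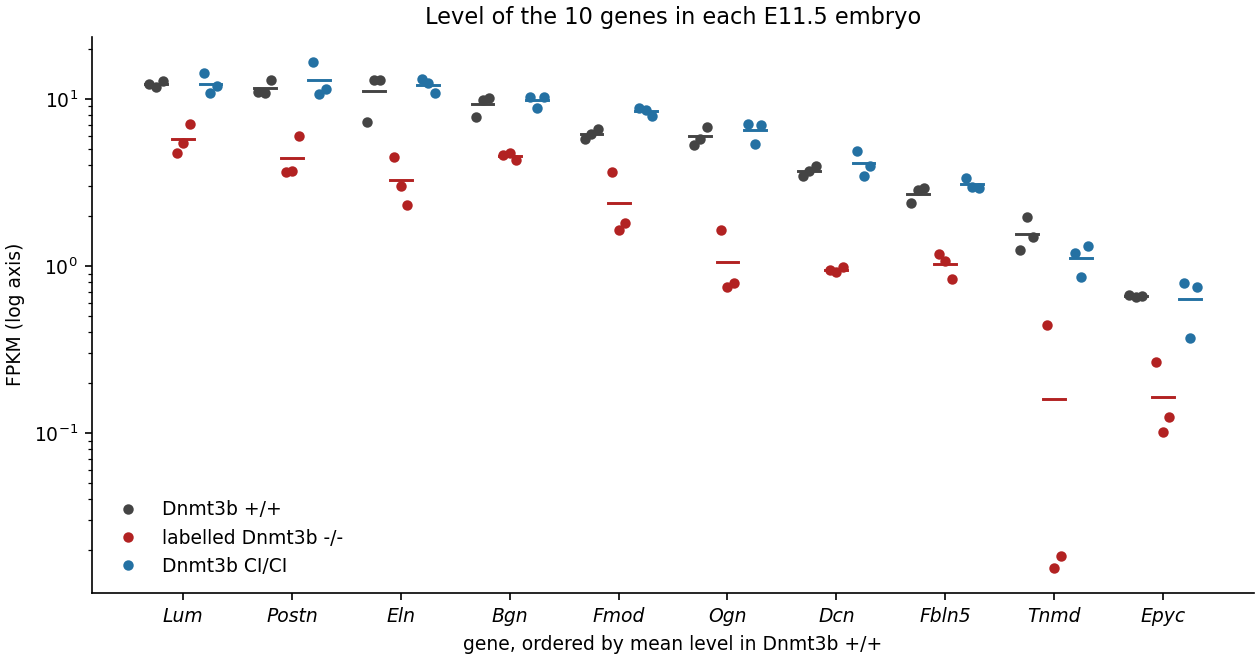
Level of each gene in each embryo, in FPKM on a log axis, with genes ordered by their mean in Dnmt3b +/+. Points are embryos and bars are means of 3; for every gene the 3 embryos labelled Dnmt3b -/- lie below the other 6, and for Tnmd they spread most, from 0.0156 to 0.445 FPKM.

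Decorin and biglycan are the closest relatives among the proteoglycans and carry chondroitin or dermatan sulfate. Dcn was at 3.46, 3.68 and 3.96 FPKM in Dnmt3b +/+ embryos 1 to 3, at 0.945, 0.923 and 0.980 FPKM in those labelled Dnmt3b -/-, and at 4.90, 3.45 and 3.96 FPKM in Dnmt3b CI/CI. The 3 labelled -/- values were nearly equal, between 24.9% and 26.5% of the Dnmt3b +/+ mean. The log2 difference from Dnmt3b +/+ was -1.86 (SE 0.12, adjusted p = 7.2e-05 by limma), the smallest adjusted p of the 10 genes. Bgn was at 7.80, 9.86 and 10.2 FPKM in Dnmt3b +/+, at 4.63, 4.77 and 4.30 FPKM in embryos labelled Dnmt3b -/- and at 10.3, 8.80 and 10.3 FPKM in Dnmt3b CI/CI. Embryos labelled -/- again formed a narrow band below all others. The log2 difference of Bgn was -0.999 (SE 0.11, adjusted p = 0.000918), just short of the 2-fold threshold, and Bgn passed that threshold in 6 of 20 alternative settings.

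Lumican and fibromodulin carry keratan sulfate. Lumican is best known from the cornea, where it keeps collagen fibrils evenly spaced, and fibromodulin from tendon and cartilage. Lum had the highest mean of the 10 genes in Dnmt3b +/+ embryos, at 12.2, 11.8 and 12.8 FPKM. It was at 4.73, 5.45 and 7.10 FPKM in embryos labelled Dnmt3b -/- and at 14.2, 10.9 and 11.9 FPKM in Dnmt3b CI/CI. The log2 difference from Dnmt3b +/+ was -1.10 (SE 0.15, adjusted p = 0.00216), and without embryo 1 labelled -/- it was -0.97, below 2-fold. Fmod was at 5.72, 6.17 and 6.63 FPKM in Dnmt3b +/+, at 3.67, 1.64 and 1.80 FPKM in embryos labelled Dnmt3b -/-, and at 8.78, 8.55 and 7.95 FPKM in Dnmt3b CI/CI. The 3 genotypes did not overlap, and embryo 1 labelled -/- stood above its fellows. The log2 difference of Fmod between embryos labelled -/- and Dnmt3b +/+ was -1.44 (SE 0.25, adjusted p = 0.00600).

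Epiphycan and osteoglycin form the third class of these proteoglycans, the former known from growth plate cartilage and the latter from bone, muscle and other connective tissue. Epyc was the least abundant of the 10 genes in Dnmt3b +/+, at 0.673, 0.651 and 0.657 FPKM, which are 77, 83 and 66 reads. It was at 0.264, 0.101 and 0.125 FPKM, or 27, 11 and 13 reads, in embryos labelled Dnmt3b -/- and at 0.791, 0.370 and 0.751 FPKM in Dnmt3b CI/CI. The log2 difference was -1.58 (SE 0.29, adjusted p = 0.00703), and with 1 FPKM added before the log in place of 0.1 it was -0.52 and not called. Ogn was at 5.32, 5.79 and 6.81 FPKM in Dnmt3b +/+, at 1.64, 0.752 and 0.788 FPKM in embryos labelled Dnmt3b -/- and at 7.06, 5.36 and 7.01 FPKM in Dnmt3b CI/CI. Its mean in embryos labelled -/- was 17.8% of that in Dnmt3b +/+. The log2 difference was -2.46 (SE 0.26, adjusted p = 0.000768), the largest among the 6 proteoglycans.

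Periostin is secreted by fibroblasts of the periosteum, heart valves and skin. Postn was at 11.0, 10.9 and 12.9 FPKM in Dnmt3b +/+ embryos, at 3.64, 3.71 and 5.99 FPKM in embryos labelled Dnmt3b -/- and at 16.6, 10.8 and 11.49 FPKM in Dnmt3b CI/CI. Embryo 1 was the highest of the CI/CI embryos, and embryo 3 the highest of those labelled -/-. The log2 difference from Dnmt3b +/+ was -1.40 (SE 0.22, adjusted p = 0.00371). Restricted to the 5 embryos with Myl2, of which 1 is Dnmt3b +/+, it was -1.19 with an adjusted p of 0.0572.

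Elastin is the extensible core of elastic fibres, and fibulin-5 helps elastin to deposit on microfibrils. Eln was at 7.32, 13.0 and 13.0 FPKM in Dnmt3b +/+, at 4.502, 3.02 and 2.32 FPKM in embryos labelled Dnmt3b -/- and at 13.1, 12.5 and 10.9 FPKM in Dnmt3b CI/CI. Dnmt3b +/+ embryo 1 was well below its fellows and still above every embryo labelled -/-. The log2 difference was -1.73 (SE 0.27, adjusted p = 0.00387). Fbln5 was at 2.37, 2.85 and 2.92 FPKM in Dnmt3b +/+, at 1.18, 1.08 and 0.835 FPKM in embryos labelled Dnmt3b -/- and at 3.35, 2.98 and 2.95 FPKM in Dnmt3b CI/CI. Both elastic fibre genes were lowest in embryo 3 labelled -/-. The log2 difference of Fbln5 was -1.32 (SE 0.13, adjusted p = 0.000635).

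Tenomodulin is a membrane glycoprotein of tendon and ligament cells. Tnmd was at 1.24, 1.96 and 1.49 FPKM in Dnmt3b +/+ embryos, or 75, 132 and 79 reads, and at 1.20, 0.854 and 1.31 FPKM in Dnmt3b CI/CI. In embryos labelled Dnmt3b -/- it had 24, 0 and 1 reads, with 0.445 FPKM in embryo 1. The detection floor was set at 3 reads, which is a level of 0.0522 FPKM in embryo 2. The exact two-sided 95% Poisson intervals were 0 to 3.69 reads for embryo 2 and 15.4 to 35.7 reads for embryo 1. The floor and the intervals cover counting error only. The log2 difference from Dnmt3b +/+ was -3.07 (SE 0.54, adjusted p = 0.00620), the largest of the 10 genes with 0.1 FPKM added. With 1 FPKM added it was -1.16, behind Ogn at -1.78, Eln at -1.49, Dcn at -1.27 and Postn at -1.23. It rests on the value added before the log and ranged from -5.06 to -1.16 over 20 alternative settings, with an adjusted p under 0.05 in each.

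**Figure D2:**
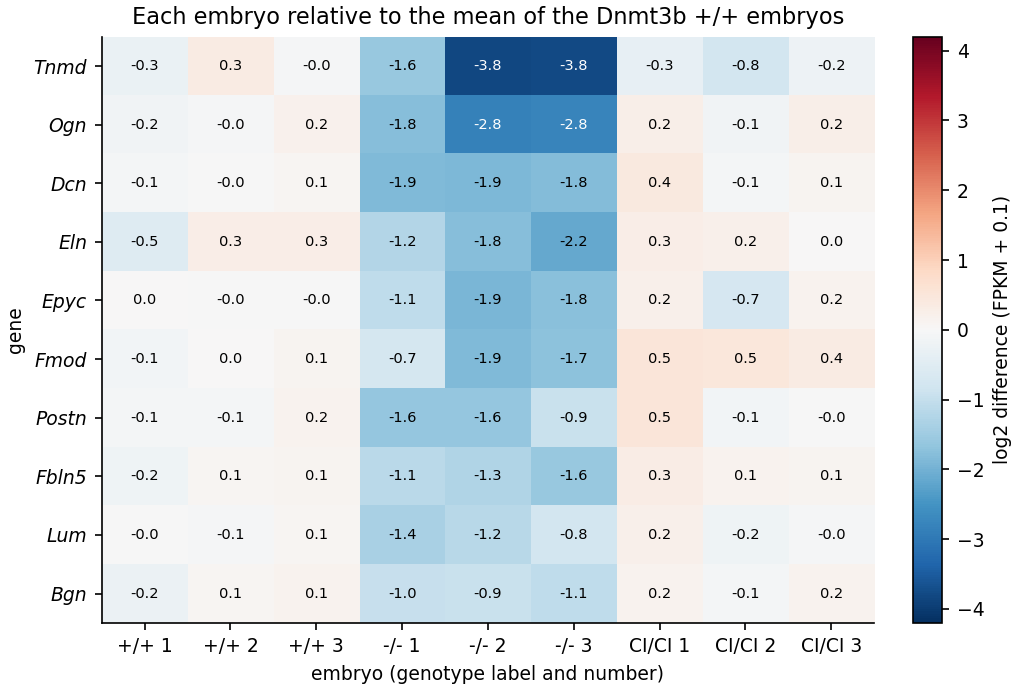
Log2 difference of each gene (FPKM + 0.1) in each embryo from the mean of the 3 Dnmt3b +/+ embryos, with genes ordered by the difference between embryos labelled -/- and Dnmt3b +/+. The 3 columns labelled -/- are below 0 for every gene, from -3.82 (Tnmd, embryo 2) to -0.73 (Fmod, embryo 1); the CI/CI columns run from -0.78 to 0.52.

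The members did not vary together among the 3 embryos labelled Dnmt3b -/-. Embryo 1 was the highest for Ogn, Fmod, Epyc, Tnmd, Fbln5 and Eln, by 2.22 on the log2 scale for Tnmd, 1.05 for Fmod and 1.00 for Ogn above the mean of embryos 2 and 3. The same embryo was the lowest for Lum and Postn, with -0.39 and -0.36. Dcn and Bgn hardly varied, with ranges of 0.08 and 0.15 on the log2 scale over the 3 embryos. Embryo 1 is the one of the 3 without Myl2, and its part in this spread was not tested.

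The order of levels was compared within genotypes. In Dnmt3b +/+ the means ran from Lum (12.3 ± 0.533 FPKM, SD, n = 3) through Postn (11.6 ± 1.16), Eln (11.1 ± 3.28) and Bgn (9.28 ± 1.29) to Fmod (6.18 ± 0.454) and Ogn (5.97 ± 0.761), then Dcn (3.70 ± 0.248), Fbln5 (2.71 ± 0.300), Tnmd (1.56 ± 0.364) and Epyc (0.660 ± 0.0117). The ranges of Lum and Postn, Postn and Eln, Eln and Bgn, and Fmod and Ogn overlapped, so these neighbours did not differ beyond their spread. In embryos labelled -/- Lum was the highest (5.76 ± 1.22 FPKM). Its range overlapped that of Bgn (4.57 ± 0.240), though Lum was above Bgn within each of the 3 embryos. The range of Bgn overlapped that of Postn (4.45 ± 1.34), and Epyc (0.164 ± 0.0881) and Tnmd (0.160 ± 0.247) were the lowest. In Dnmt3b CI/CI Postn was the highest (13.0 ± 3.19 FPKM), with a range that overlapped that of Lum (12.3 ± 1.70), which overlapped that of Eln (12.1 ± 1.14), and the other 7 genes followed in the same order as in Dnmt3b +/+.

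None of the 10 genes was called in Dnmt3b CI/CI against Dnmt3b +/+ embryos, a comparison that shares its controls with the previous one. By limma 0 of 10 had an unadjusted p under 0.05, against 2.55% of all genes lower and 2.7% higher, 0 were called on reads with voom, and adjusted p ran from 0.949 to 0.998. Over all genes, 0.129% were called higher and 0% lower. The log2 differences were -0.44 for Tnmd, -0.10 for Epyc, -0.00 for Lum, 0.08 for Bgn, 0.11 for Ogn, 0.13 for Dcn, 0.14 for Postn, 0.17 for Eln, 0.19 for Fbln5 and 0.44 for Fmod, with a median of 0.12 against 0.02 over all genes. Their 95% intervals were widest for Tnmd, from -1.67 to 0.79, and excluded a 2-fold difference in either direction for each gene except Tnmd and Fmod, whose interval reached 1.01. The 3 CI/CI embryos lay above the 3 Dnmt3b +/+ embryos for Fmod and Fbln5, which held for 7.53% of all genes.

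Embryos labelled Dnmt3b -/- were compared with Dnmt3b CI/CI embryos directly, which tests whether the effects of the 2 mutations differ. All 10 genes were called lower, against 4.32% of all genes, and for all 10 the 3 embryos labelled -/- lay below the 3 CI/CI embryos, against 29.5% of all genes. With 0.1 FPKM added the largest log2 differences were -2.62 for Tnmd (SE 0.54, adjusted p = 0.00940) and -2.57 for Ogn (SE 0.26, adjusted p = 0.000603). Dcn followed with -1.99, Eln with -1.90 and Fmod with -1.88, then Postn with -1.53, Fbln5 with -1.51 and Epyc with -1.48. Lum and Bgn differed least, by -1.09 (adjusted p = 0.00186) and -1.08 (adjusted p = 0.000609). With 1 FPKM added before the log in place of 0.1, 6 of 10 members were called in this comparison (not Lum, Epyc, Bgn and Tnmd, the last at -0.89), against 0.954% of all genes. Against Dnmt3b +/+ 6 of 10 were called in that setting (not Lum, Epyc, Fbln5 and Bgn), against 0.686% of all genes. In this comparison Lum also fell short of 2-fold without embryo 1 labelled -/-, without CI/CI embryo 1 and in the 5 embryos with Myl2, and Bgn did so under median-of-ratios scaling.

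**Figure D3:**
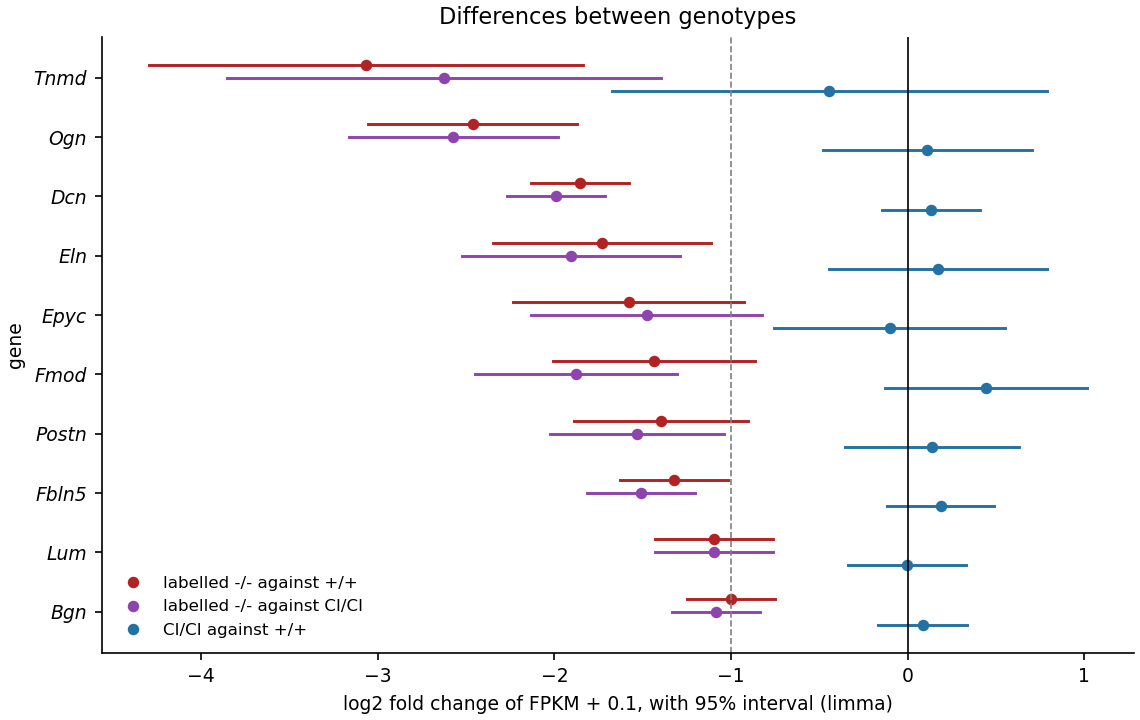
Log2 difference of each gene between genotypes on the scale log2(FPKM + 0.1), with 95% intervals from limma; the dashed line marks a 2-fold fall. The differences of embryos labelled -/- from Dnmt3b +/+ and from CI/CI, which share the labelled -/- embryos, run from -3.07 to -0.999 and from -2.62 to -1.08; those of CI/CI from +/+ run from -0.44 to 0.44.

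The 10 genes were also lower in each set of embryos defined by Myl2. Among the 4 embryos without it (2 Dnmt3b +/+, 1 labelled -/- and 1 CI/CI), all 10 genes were lower in the embryo labelled -/- than in the mean of Dnmt3b +/+, against 54.3% of all genes, by log2 differences of -1.86 to -0.73. Among the 5 embryos with it (1 Dnmt3b +/+, 2 labelled -/- and 2 CI/CI), the differences were -4.14 to -0.91 for the 10 genes, and 55% of all genes were lower. With the set as a term in the model 9 of 10 genes were called lower, against 2.72% of all genes. In the 5 embryos alone 8 of 10 were called lower, against 9.12% of all genes, with Lum at -0.91 and Postn, given above, not called. There the Dnmt3b +/+ arm is embryo 2 alone, the embryo low in Alb and Afp, and it is assumed to vary like the other groups. Both settings were chosen after the data were seen.

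Other small leucine-rich proteoglycans and close relatives were examined next. Of 12 listed genes 11 passed the filter, and 5 were called lower and 0 higher against Dnmt3b +/+, against 3.38% and 1.07% of all genes, with a median log2 difference of -0.60. Aspn, for asporin, a neighbour of Ogn, fell the most of them, from 1.23, 1.64 and 1.68 FPKM in Dnmt3b +/+ to 0.107, 0.00999 and 0.0419 FPKM (10, 1 and 4 reads) in embryos labelled -/-, a log2 difference of -3.44. Prelp, for a heparin-binding member of the family, changed by -1.91, the cartilage gene Chad by -1.64, the corneal gene Kera by -1.46 and Chadl by -1.37. The most abundant genes not called were Tsku with -0.51, Podn with -0.60 and the eye gene Optc with -0.26, of which Tsku and Podn had adjusted p values of 0.00504 and 0.0450.

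Of 21 other matricellular genes 20 were tested, with a median of -0.68. Of these, 8 were called lower and 1 higher, against 3.38% and 1.07% of all genes. At an adjusted p under 0.05 by limma and any fold 15 were lower and 2 higher, against 16.4% of all genes lower. Thbs2 and Comp, which are thrombospondins of connective tissue and of cartilage and tendon, had log2 differences of -2.31 and -2.10. Thbs4 changed by -1.71, the tenascin gene Tnn by -1.47 and Smoc2 by -1.45. Cyr61, a target of mechanical and growth signals, rose, from 7.22, 7.19 and 7.15 FPKM in Dnmt3b +/+ to 14.7, 19.9 and 21.97 FPKM in embryos labelled -/-, a log2 difference of 1.36. The abundant genes Sparc (-0.67), Tgfbi (-0.46) and Thbs1 (-0.38) differed by less than 2-fold, with adjusted p values of 0.00226, 0.0152 and 0.0136.

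Among 21 other elastic fibre and fibulin genes, 4 were called lower and 0 higher, against 3.38% and 1.07% of all genes. Their median was -0.53. Lox, the enzyme that crosslinks elastin and collagen, changed by -1.91, from 8.27, 11.45 and 10.6 FPKM to 3.29, 2.20 and 2.43 FPKM. The latent TGF-beta binding proteins Ltbp3 and Ltbp4 changed by -1.67 and -1.41. Ltbp2 changed by -1.01 at a level of at most 0.302 FPKM and lost its call in 7 of 19 alternative settings. The most abundant genes not called were the microfibril genes Mfap2 at -0.51, Mfap4 at -0.29 and Fbn2 at -0.10, with adjusted p values of 0.00671, 0.0335 and 0.470. At an adjusted p under 0.05 and any fold 14 of the 21 were lower and 0 higher, against 16.4% of all genes lower.

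Of 21 enzymes that build glycosaminoglycan chains 2 were called lower and 0 higher, while 10 were lower at an adjusted p under 0.05 and all 21 had a difference below 0, with a median of -0.37. Of all genes 3.38% were called lower, 16.4% were lower at an adjusted p under 0.05 and 58.1% had a difference below 0. Csgalnact1, which starts chondroitin chains, changed by -1.63 and Chsy3, which extends them, by -1.15. Chsy3 lost its call in 12 of 20 alternative settings. B3gat3 of the linker (-0.16), Chsy1 (-0.16) and Chpf (-0.74) were not called. Among 10 TGF-beta ligands, receptors and SMADs limma called Tgfb3, at -1.17, and no other, while voom called 2, and 4 were lower and 1 higher at an adjusted p under 0.05. The median was 0.05, and the most abundant genes not called were Tgfbr1 at 0.22 and Smad4 and Smad3 at 0.09 each.

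Of 8 tendon and ligament regulators 7 were tested. Of these, 2 were called lower and 0 higher, against 3.38% and 1.07% of all genes. The 2 were Thbs4 and Kera, which also stand in the lists above. Scx, the transcription factor of tendon progenitors, was not called: it was at 15.9, 13.8 and 16.9 FPKM in Dnmt3b +/+ and at 17.5, 11.3 and 8.79 FPKM in embryos labelled -/-, a log2 difference of -0.36 (SE 0.22, adjusted p = 0.262). Embryo 1 labelled -/- had the highest of these 6 values of Scx, and it was also the embryo with 24 reads of Tnmd. Tnc, for tenascin-C, differed by -0.93 and Egr1 by 0.82, both under 2-fold, with adjusted p values of 0.00454 and 0.00287.

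Taking each of the 90 genes of these lists once, 87 were tested, and 20 were called lower and 1 higher against Dnmt3b +/+, where 3.38% and 1.07% of all genes were. With 1 FPKM added before the log, Prelp, Chad, Kera, Chadl, Comp, Tnn, Ltbp2, Csgalnact1 and Chsy3 stayed lower but were not called. In Dnmt3b CI/CI against Dnmt3b +/+, 0 of the 87 were called by limma and 0 on reads with voom, 5 had an unadjusted p under 0.05 in either direction, against 2.55% of all genes lower and 2.7% higher, and the log2 differences ran from -0.31 to 0.50. The lists were written with earlier results of these data known, so the counts are a description.

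**Figure D4:**
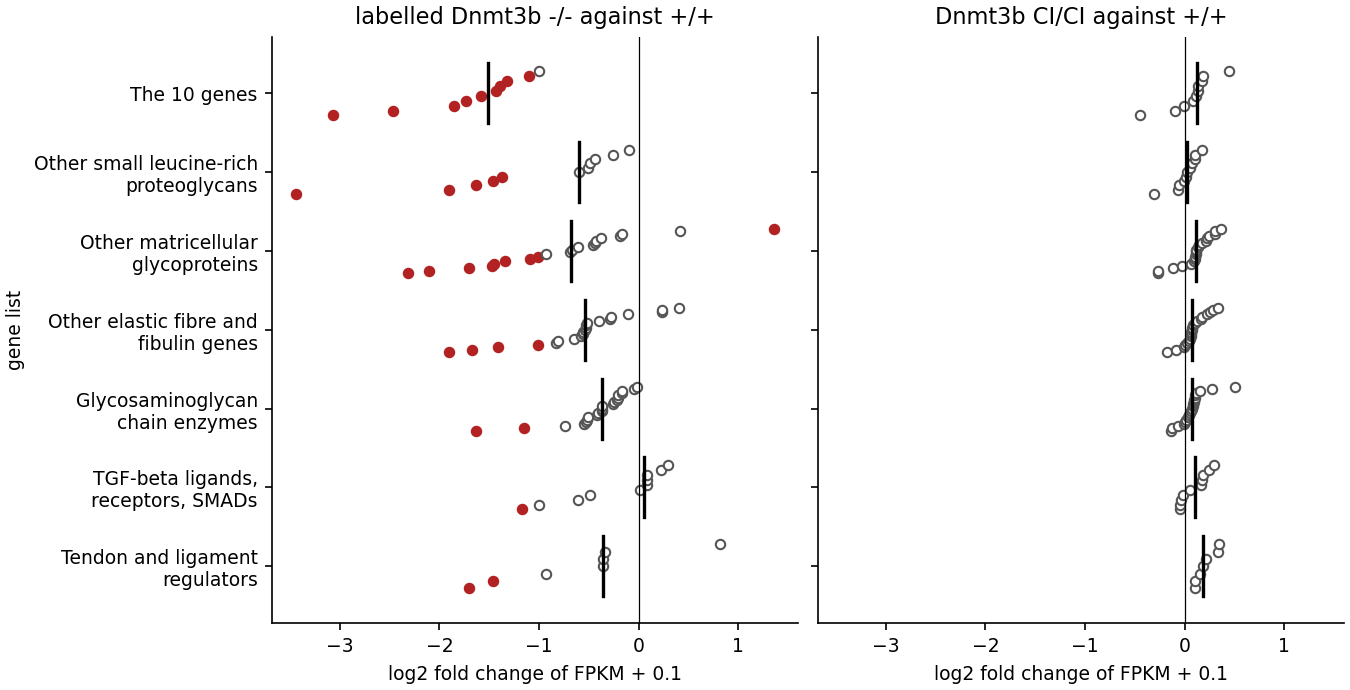
Log2 difference of each gene (FPKM + 0.1) from Dnmt3b +/+, for the 10 genes and 6 lists of related genes, in embryos labelled -/- (left) and CI/CI (right). Each point is a gene, filled where called, and bars are medians: -1.51 for the 10 genes against -0.68 to 0.05 for the lists on the left, with no filled point on the right.

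Markers of other cell types moved with these genes to different degrees. For reference, 3.38% of all genes were called lower and 1.07% higher in embryos labelled Dnmt3b -/- against Dnmt3b +/+. Lower levels at an adjusted p under 0.05 by limma held for 16.4%, and a difference below 0 for 58.1%. Of 10 cartilage markers 6 were called lower in that comparison, with a median of -1.46. At an adjusted p under 0.05 and any fold all 10 were lower. Their summed levels were 93.8 to 153 FPKM against 193 to 287 FPKM, and 278 to 296 FPKM in CI/CI. The cartilage matrix genes Matn4 (-4.25), Matn1 (-3.92) and Acan (-3.31) changed the most of them. Of 8 skeletal muscle markers 5 were called lower, with a median of -1.14, Mylpf at -1.61, Myod1 at -1.38 and Myog at -1.25 and summed levels of 88.0 to 111 FPKM against 126 to 231 FPKM, and 224 to 267 FPKM in CI/CI. Myod1 and Myog lost their calls in 7 and 12 of 20 alternative settings. Of 10 general mesenchyme and fibroblast markers 1 was called lower, Col1a1 at -1.23, while at an adjusted p under 0.05 and any fold 5 were lower and 2 higher, with a median of -0.34, a highest value of 0.77 and summed levels of 387 to 412 FPKM against 484 to 554 FPKM, and 530 to 604 FPKM in CI/CI. Of 6 smooth muscle markers 1 was called lower, Myh11 at -1.50, which lost its call in 14 of 20 alternative settings and whose values overlapped between the groups, and the median was -0.71 and the summed levels were 27.6 to 41.2 FPKM against 45.2 to 62.6 FPKM. In the heart, endothelium, neuron and epithelium lists 0 of 7, 7, 7 and 6 were called by limma, with unadjusted p under 0.05 for 0, 2, 1 and 2 and calls with voom for 0, 0, 0 and 1, and in the macrophage list 0 of 5 tested, with 5 and 0. The medians of these lists were 1.69 for heart, -0.07 for endothelium, -0.58 for neurons, 0.28 for epithelium and -0.61 for macrophages. All 7 neuron markers had a difference below 0, with 0 at an adjusted p under 0.05, and 3 of the 5 macrophage markers were lower and 1 higher at that threshold. Summed levels were 152 to 287 FPKM against 188 to 365 FPKM for the neuron list and 8.32 to 8.99 FPKM against 9.91 to 10.6 FPKM for the macrophage list. Of 7 red cell markers 2 were called higher, the globins Hbb-bh1 at 3.01 and Hba-x at 1.79, with a median of 0.45 and summed levels of 2230 to 6974 FPKM against 2265 to 2897 FPKM. Hba-x lost its call in 3 of 20 alternative settings. Of 6 liver markers 1 was called lower, Ttr at -2.19, while 2 of 6 had a difference below 0 and the median was 0.57, with summed levels of 52.9 to 108 FPKM against 35.9 to 259 FPKM. No marker was at 3 or fewer reads in all 9 libraries. The summed heart markers varied within each genotype, from 4.77 to 118 FPKM in Dnmt3b +/+, 27.6 to 130 FPKM in embryos labelled -/- and 7.48 to 113 FPKM in CI/CI. The part of these tissues in the fall of the 10 genes was not tested.

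Over the 9 embryos each member's standardised log2 level followed the mean of the other 9 members with a Pearson r of 0.915 (Lum) to 0.992 (Ogn). The points share the split between embryos labelled -/- and the rest, so these values describe mostly that split. The genes outside the members most like their mean profile were Bmp3, for a bone morphogenetic protein, and Col6a3, for a collagen VI chain (r = 0.997 each), then Thbs2 (0.997), Lrrc17 (0.996) and Aspn (0.996). Bmp3 was at 0.633 to 0.872 FPKM in Dnmt3b +/+, 0.143 to 0.244 FPKM in embryos labelled -/- and 0.674 to 0.924 FPKM in Dnmt3b CI/CI. Col6a3 was at 10.3 to 12.3, 3.84 to 5.18 and 11.2 to 13.3 FPKM in the same order.

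Genes that neighbour the members differed unevenly. Within 250 kb of the 10 genes 60 other genes were tested in embryos labelled Dnmt3b -/- against Dnmt3b +/+, with a median of -0.07. Of these, 12 (20%) were called lower and 4 higher, against 3.38% and 1.07% of all genes. The 12 include Gm30003, whose reads cannot be told apart from those of Eln. They also include Aspn, Kera and Prelp, which stand in the list of proteoglycans above. On chromosome 10 the called genes run in a row, with Dcn, Lum, Kera and Epyc lower, and Ccer1 beyond them had 0 reads in each Dnmt3b +/+ embryo, 15, 17 and 8 in those labelled -/- and 10, 8 and 0 in Dnmt3b CI/CI. Around Ogn, Aspn fell while Omd, between them, was at -0.09, Ecm2 at -0.44 and Cenpp at 0.47, none of them called. Omd had a mean of 0.125 FPKM in Dnmt3b +/+. Beside Fmod, Prelp was lower and Optc was not called, and the called neighbours on the other side include the muscle genes Mybph (-2.002) and Myog (-1.25). Of the 4 higher genes, Xlr4c, Xlr3c and Dusp9 neighbour Bgn on X.

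**Figure D5:**
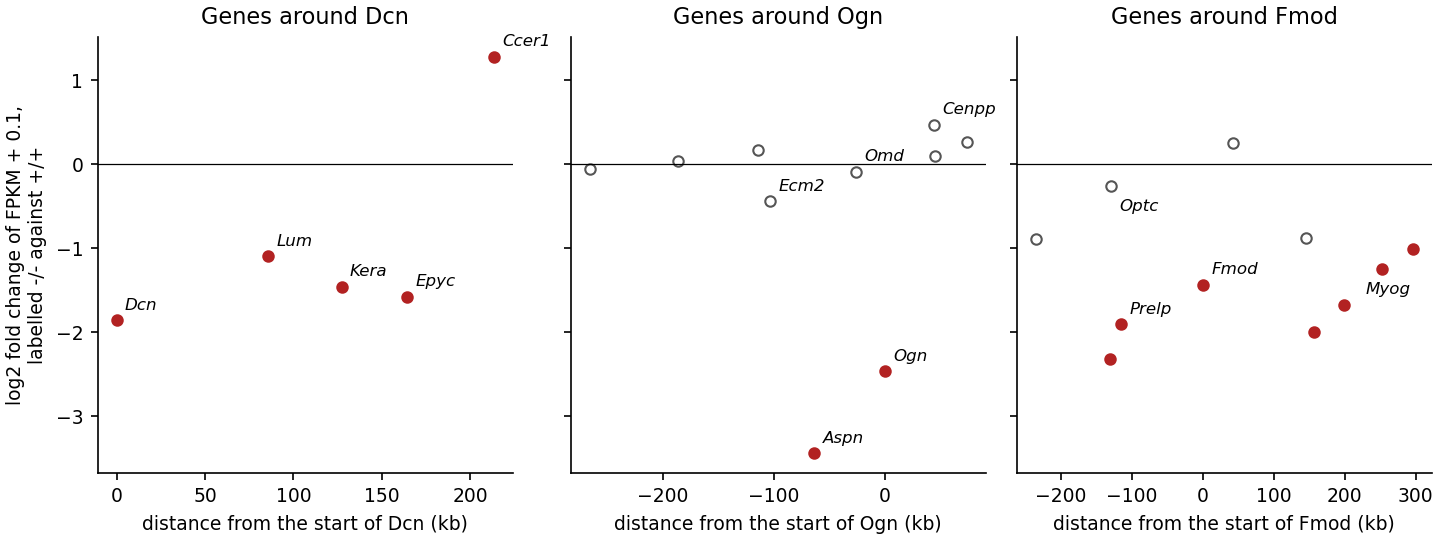
Log2 difference (FPKM + 0.1) between embryos labelled -/- and Dnmt3b +/+ for tested genes around Dcn, Ogn and Fmod, by distance of their starts in kb; filled points were called. Lower genes stand side by side around Dcn, whereas Aspn at -63.6 kb and Ogn are lower with Omd, at -0.09, between them.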

How the data were processed

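Whole mouse embryos at E11.5 were analysed by RNA-seq, 3 per genotype. The authors aligned trimmed paired-end reads to mm10 with STAR and quantified genes with SeqMonk; the deposited values are linear FPKM, in 1 column per embryo. Annotation release and strandedness are not given in the sources used here. Genes without reads carry a floor worth 0.9 reads. Since values are whole reads times constants, reads were worked back and came out whole for 34243 of 34244 genes; 91.6% fitted a GENCODE M21 length. From 20467563 to 26413408 reads per library lay on listed genes, so 3 reads are near the lowest level seen. A row without gene name was left out.

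Genes with at least 0.1 FPKM in 3 of 9 embryos (19397) entered a limma 3.58.1 fit (R 4.3.3) of log2(FPKM + 0.1), 9 embryos and 3 genotypes in 1 fit with a variance trend, after tests on simulated data. The labels number 3 embryos per genotype, which were taken as independent, so p-values measure the spread between embryos. Same-numbered embryos did not deviate together (mean r -0.0865 against 0.0478 for other pairs), so no block was used. The authors' own gene lists, methylation data and lymphoma samples were not used here.

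The 10 genes and all lists were chosen with earlier results of these data known. Named were the members, Dnmt3b, from each related list the called genes (at most 6) and the 3 most abundant not called, the 5 genes most alike in profile, and from each marker list up to 3 called genes. Named outside this rule after their values were seen were Myl2, Alb, Afp and the neighbours. Alternatives were 0.01 or 1 FPKM added, no filter or 1 FPKM, quantile or median-of-ratios scaling, 2 genotypes only, a replicate block, voom on reads, no fold threshold, and each embryo left out.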

Additional observations from a re-analysis of the deposited data

How the results depend on the processing

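Under 20 alternatives (19 for Epyc, which fell to the filter of 1 FPKM) each of the 10 genes stayed lower in embryos labelled Dnmt3b -/- than in Dnmt3b +/+ and in Dnmt3b CI/CI embryos, with an adjusted p under 0.05 except for Postn in the 5 embryos with Myl2 (0.0572 against Dnmt3b +/+, which is 1 embryo there). With 1 FPKM added, 6 members were called against CI/CI. Counts over all genes moved more. Against Dnmt3b +/+, 655 genes were called lower and 208 higher; these became 1028 lower with 0.01 FPKM added, 133 and 60 with 1 FPKM added, 388 and 96 with the filter of 1 FPKM, 392 and 272 with quantile normalization, 1034 lower with voom, 1702 and 563 in the 5 embryos with Myl2, 3175 and 1826 without the fold threshold, and 426 to 1174 lower with an embryo left out (426 without embryo 3 labelled -/-, 1174 without embryo 1). For CI/CI against +/+, 25 were higher and 0 lower, which became 8 higher with 1 FPKM added, 87 and 11 in the 5 embryos with Myl2, 3 lower without the fold threshold, and 0 to 2 lower with an embryo left out. For labelled -/- against CI/CI, 838 were lower and 213 higher, which became 185 and 57 with 1 FPKM added, 492 and 105 with the filter, 495 and 330 with quantile normalization, 1354 lower in the 5 embryos with Myl2, 3525 and 1882 without the fold threshold, and 560 to 1346 lower with an embryo left out (1346 without embryo 1 labelled -/-). Quantile normalization moved the median of all genes from -0.08 to 0.03 in that comparison, and the 10 members stayed called. With the replicate block 539 genes were lower and 199 higher against Dnmt3b +/+, 0 and 17 for CI/CI against +/+, and 732 and 194 against CI/CI, with 9, 0 and 10 members called lower; 0 embryos lay closest to their own number. The cause of these shifts was not tested.

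Small differences between CI/CI and Dnmt3b +/+ changed sign: Lum was at 0.000674 with voom and 0.0743 in the embryos with Myl2, Epyc at 0.0327 with the Myl2 set as a term, and Bgn and Eln at -0.0490 and -0.0268 in the embryos with Myl2. With an embryo left out Lum ran from -0.108 to 0.0832, Epyc from -0.266 to 0.196, Postn from -0.0541 to 0.257, Bgn from -0.0346 to 0.160 and Eln from -0.102 to 0.310. Depth limits Tnmd and Epyc most, with 25 and 51 reads in all 3 embryos labelled -/- together.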
